A study of Mus musculus with 160 samples.

Results

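Gkn3, Mt3, Gm13111, Kcne3, Prl3b1 and Gm37121 are 6 of the 46078 genes in the count table. They were picked for their differences between Gata3-GFP+ and Gata3-GFP- endothelial cells (ECs) of the mouse embryo. Among the genes ranked, Gkn3, Mt3 and Gm13111 had the largest rises and Kcne3, Prl3b1 and Gm37121 the largest falls in Gata3-GFP+ ECs. They were chosen by their log2 fold change among the genes past the threshold of the EC comparison for which 75% of the pools of the population with more of the gene held 10 counts or more. The EC values therefore fixed the choice and are given as a description. The levels in the other populations were not used for it.

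The counts came from pools of 20 cells sorted from the aorta-gonad-mesonephros (AGM) region, the tissue around the dorsal aorta in which the first blood stem cells form. All pools came from heterozygous Gata3-GFP knock-in embryos, in which GFP stands in for a copy of Gata3 and marks the cells that express it, so the GFP-negative cells carry the same allele. On embryonic day E10.5, the ECs were the cells with VE-cadherin that lacked both CD41 and CD45, and hematopoietic cells (HCs) were those positive for these blood markers. At E11.5, cells with Pdgfrb, a receptor of mesenchymal and perivascular cells, were labelled mesenchymal (MC), and cells with Ngfr, the neural crest receptor p75, were labelled sympathetic nervous system (SNS). Each of the 4 cell types was divided into Gata3-GFP+ and Gata3-GFP- cells, and there were 20 pools in each of the 8 populations. Embryos were pooled for each sort. The labels tie no pool to a sort, so the errors and p-values below measure the spread between pools, which may be partly technical.

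GATA3 is a zinc finger transcription factor that binds GATA motifs and is needed for T cell, sympathetic and adrenal development. Blood stem cells arise in the AGM from hemogenic endothelium that lines the dorsal aorta, an artery, whereas the cardinal veins carry venous endothelium. The 6 genes belong to unrelated families. Gkn3 encodes gastrokine 3, a secreted protein of a family known from the stomach lining, and it is also used as a marker of arterial endothelium in the mouse brain. Mt3 encodes metallothionein 3, a small cysteine-rich protein that binds zinc and copper and is best known from the brain. Gm13111 is an antisense long non-coding RNA. Kcne3 encodes an accessory subunit of voltage-gated potassium channels such as KCNQ1. Prl3b1 encodes placental lactogen II, a hormone of the prolactin family that trophoblast giant cells make. Gm37121 is a locus without an established transcript model.

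The genes lay on separate chromosomes in GENCODE M21 (GRCm38). Gkn3 (ENSMUSG00000030048) spanned chr6:87383256-87388935 on the minus strand with 856 exon bases. Mt3 (ENSMUSG00000031760) spanned chr8:94152607-94154146 on the plus strand, with 1066 exon bases in 3 exons, and Mt2 and Mt1 follow it on the same strand. Kcne3 (ENSMUSG00000035165) spanned chr7:100176502-100184869 on the plus strand with 1779 exon bases, and Prl3b1 (ENSMUSG00000038891) spanned chr13:27241847-27249683 on the plus strand with 1066 exon bases. Gm13111 (ENSMUSG00000085069) spanned chr4:154637576-154644724 on the plus strand with 3542 exon bases, and the start of Prdm16, a transcription factor gene on the opposite strand, lay 703 bases away. Gm37121 (ENSMUSG00000103032) was a single exon at chr1:62809302-62811857 on the plus strand, within an intron of Nrp2, which runs on the same strand. Reads of Gm37121 and of unspliced Nrp2 RNA cannot be told apart there.

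Promoter windows of 300 bases from RefSeq (GRCm38.p6, 250 bases before to 50 after the start) existed for the 4 protein-coding genes. They are shown because these genes were chosen for their difference by Gata3-GFP in ECs, and Mt1 is added as the neighbour of Mt3 whose level went the other way. Capitals mark GATA letters (AGATAA, its variant AGATAG, likewise TGATAA and its variant TGATAG, on either strand) in Gkn3, Kcne3 and Prl3b1, and the metal response element core (TGCACNC or TGCGCNC on either strand) in Mt3 and Mt1. The windows are chr6:87388886-87389185 on the minus strand for Gkn3, chr8:94152357-94152656 for Mt3, chr8:94178839-94179138 for Mt1, chr7:100176420-100176719 for the upstream of 2 starts of Kcne3, and chr13:27242180-27242479 for Prl3b1, the last 4 on the plus strand.
Gkn3: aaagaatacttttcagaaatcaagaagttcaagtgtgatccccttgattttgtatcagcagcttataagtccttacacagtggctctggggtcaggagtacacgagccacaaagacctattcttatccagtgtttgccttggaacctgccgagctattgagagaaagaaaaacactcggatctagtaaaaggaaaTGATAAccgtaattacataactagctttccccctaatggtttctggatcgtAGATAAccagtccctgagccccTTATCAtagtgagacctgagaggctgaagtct
Mt3: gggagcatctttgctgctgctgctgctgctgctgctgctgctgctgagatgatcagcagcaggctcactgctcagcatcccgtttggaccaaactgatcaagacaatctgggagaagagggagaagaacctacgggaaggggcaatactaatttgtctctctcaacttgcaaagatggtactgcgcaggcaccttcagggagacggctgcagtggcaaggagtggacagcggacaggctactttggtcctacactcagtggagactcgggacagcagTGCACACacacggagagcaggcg
Mt1: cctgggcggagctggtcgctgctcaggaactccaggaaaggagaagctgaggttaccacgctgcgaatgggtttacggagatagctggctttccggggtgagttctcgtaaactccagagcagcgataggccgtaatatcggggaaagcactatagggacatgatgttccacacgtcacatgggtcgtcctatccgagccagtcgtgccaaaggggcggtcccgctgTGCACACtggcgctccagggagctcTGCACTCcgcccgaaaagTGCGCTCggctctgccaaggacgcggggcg
Kcne3: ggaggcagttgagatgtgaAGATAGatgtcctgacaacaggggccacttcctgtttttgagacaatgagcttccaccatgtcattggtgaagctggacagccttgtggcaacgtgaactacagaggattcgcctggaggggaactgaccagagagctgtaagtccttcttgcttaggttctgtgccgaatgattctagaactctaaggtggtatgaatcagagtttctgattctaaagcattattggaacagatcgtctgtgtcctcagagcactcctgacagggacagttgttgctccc
Prl3b1: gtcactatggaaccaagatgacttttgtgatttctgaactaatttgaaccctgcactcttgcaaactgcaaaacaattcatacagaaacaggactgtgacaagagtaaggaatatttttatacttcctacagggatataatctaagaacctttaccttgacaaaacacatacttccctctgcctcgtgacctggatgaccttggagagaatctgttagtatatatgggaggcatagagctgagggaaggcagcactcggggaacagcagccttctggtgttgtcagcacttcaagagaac
The Gkn3 window held 3 GATA matches, 55 and 4 bases before the start and 19 after it, and the matches do not overlap. At least 1 GATA match was found in 29.6% of 32544 such windows and 3 or more in 1.69%. The upstream Kcne3 window had 1 GATA match 231 bases before the start, and the Prl3b1 and Mt3 windows had none of these letters. The metal response element core stood once in the Mt3 window, 28 bases after the start, against 3 times in the Mt1 window and 4 times in the Mt2 window, and 25.9% of all windows held it. The Prl3b1 window held it once, 199 bases before the start. The letters of RBPJ (TGGGAA, in 25.4% of windows) and RUNX (TGTGGT, in 16.7%) were also searched on both strands, and neither stood in the Gkn3, Mt3 or Prl3b1 windows or the upstream Kcne3 window. The window of the other Kcne3 start, not shown, held an RBPJ match 22 bases before that start, 2 metal response element cores 9 and 32 bases after it, and no GATA match. A match is a description of the sequence only.

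Of the 160 pools, 153 passed the study's limits on read number and on shares of reads, with 17 to 20 pools in each population. The 7 other pools held no count of the 6 genes, except a Gata3-GFP+ EC pool with 3 counts of Gkn3, 2 of Gm13111 and 3 of Kcne3. Gene counts ranged from 1400824 to 16004756 per pool with a median of 3801230. Values are CPM, the counts of a gene scaled to the same library total in every pool after TMM normalization over the 153 pools. A gene was tested where at least 5 of the pools compared had 10 counts or more, and called at a Benjamini-Hochberg adjusted p under 0.01 in edgeR's quasi-likelihood test with a log2 fold change beyond 0.1. Gata3 itself stood at 78.6 ± 29.95 CPM (SD, n = 19) in GFP-positive and 12.2 ± 6.89 CPM (n = 20) in GFP-negative ECs. The VE-cadherin gene Cdh5 stood at means of 1069 CPM in Gata3-GFP+ and 434 CPM in Gata3-GFP- ECs, against 11.6 CPM in Gata3-GFP+ HCs.

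At E11.5, 12 of the 74 passing pools had markers that went against their label, and none of the 79 passing E10.5 pools did. In 3 pools each labelled Gata3-GFP+ MC and Gata3-GFP- MC, the summed CPM of 10 sympathetic and neural crest markers was higher than that of 9 mesenchymal markers. In 3 pools each labelled Gata3-GFP+ SNS and Gata3-GFP- SNS, the order was the reverse. The 3 such Gata3-GFP- MC pools had 94.1 to 211 mesenchymal and 2191 to 5664 sympathetic CPM, against 2800 to 4133 and 17.5 to 118 CPM in the other 14. In the 3 such Gata3-GFP+ SNS pools, the mesenchymal sum was 2843 to 3063 CPM and the sympathetic sum 44.7 to 75.5 CPM, against 112 to 339 and 1292 to 4314 CPM in the other 15. Gata3 stood at 123, 353 and 395 CPM in the 3 Gata3-GFP- MC pools and at 2.52 to 19.02 CPM in the other 14. The choice of these pools used the marker lists only, not the 6 genes, and was made after the data had been seen. Populations at E11.5 are named as labelled, and the E11.5 comparisons of the 6 genes are given with all pools and without these 12. With all pools, Gata3 had a log2 fold change of -0.66 (SE 0.52) between the Gata3-GFP+ and Gata3-GFP- pools labelled MC, which edgeR's quasi-likelihood test did not call (adjusted p = 0.496). Without the 12 pools it was 1.88 (SE 0.22, adjusted p = 8.98e-08 in edgeR).

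**Figure D1:**
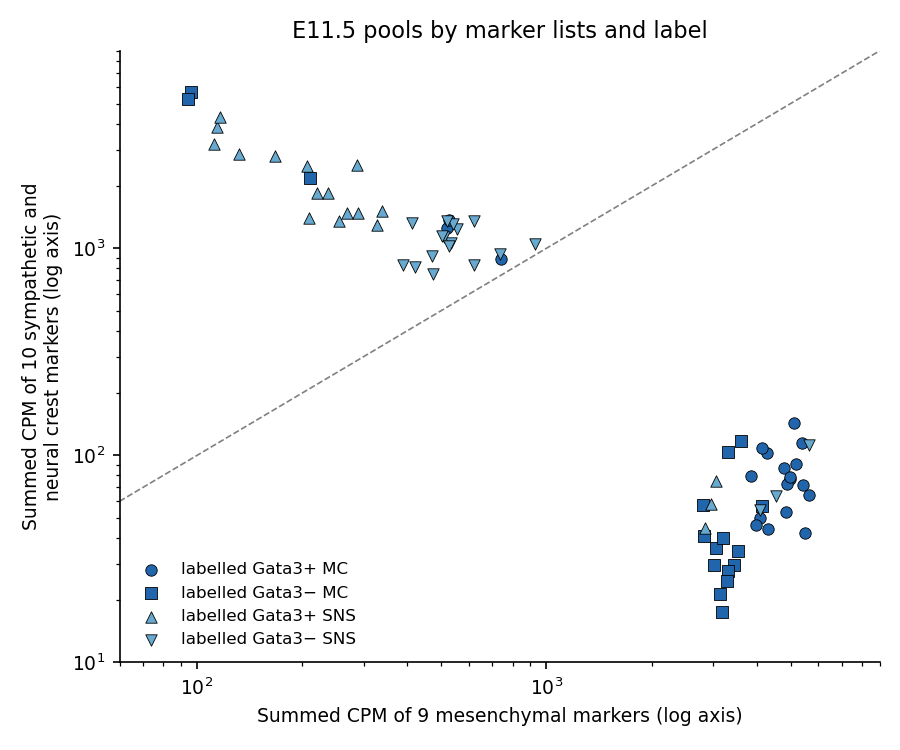
Summed CPM of 9 mesenchymal markers (x, log axis) against that of 10 sympathetic and neural crest markers (y, log axis) in the 74 passing E11.5 pools, 1 symbol per pool, shaped by its label. The dashed line marks equal sums, and 6 pools labelled MC lie above it and 6 labelled SNS below it.

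The 3 rising genes were high in every Gata3-GFP+ EC pool and near 0 in every Gata3-GFP- EC pool. Gkn3 ranged from 12.5 to 234 CPM with a median of 130 over the 19 Gata3-GFP+ EC pools, which is 40 to 810 counts. In the 20 Gata3-GFP- EC pools it ranged from 0 to 0.924 CPM, at most 4 counts, and 11 pools had any. The groups did not overlap. Means were 116 ± 64.2 CPM (SD, n = 19) and 0.322 ± 0.329 CPM (n = 20), with a log2 fold change of 8.16 (SE 0.39). Over the pools summed, 7589 counts stood against 22, a ratio of 302 after scaling, with a 95% exact interval of 199 to 482. Reads were amplified and carry no molecular identifiers, so this interval and those that follow cover counting error only.

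Mt3 had 11.7 to 84.1 CPM with a median of 29.7 in the Gata3-GFP+ EC pools, or 31 to 327 counts. It had 7 counts in all over the Gata3-GFP- EC pools, spread over 5 of the 20, and at most 1.11 CPM. The means were 33.3 ± 17.2 CPM (SD, n = 19) and 0.145 ± 0.300 CPM (n = 20), a log2 fold change of 7.70 (SE 0.40). Again no Gata3-GFP- EC pool reached the lowest Gata3-GFP+ EC pool. The ratio of summed counts was 283 (95% exact interval 137 to 704).

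Gm13111 ranged from 5.48 to 58.9 CPM with a median of 17.4 in the Gata3-GFP+ EC pools (19 to 264 counts), and had 5 counts in 4 of the 20 Gata3-GFP- EC pools. Means were 21.02 ± 12.5 CPM (SD, n = 19) and 0.0805 ± 0.190 CPM (n = 20), with a log2 fold change of 7.42 (SE 0.43). The groups were apart here too, with a ratio of summed counts of 257 (95% exact interval 110 to 792). Per kilobase of exon, the mean level in Gata3-GFP+ ECs was 135 CPM for Gkn3, 31.3 CPM for Mt3 and 5.93 CPM for Gm13111, so the 3 genes with like fold changes differed in level.

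The 3 falling genes were present in nearly all Gata3-GFP- EC pools, and the Gata3-GFP+ EC pools varied widely. Kcne3 had 63.0 to 335 CPM with a median of 203 in the Gata3-GFP- EC pools (183 to 1838 counts), and 0 to 78.004 CPM with a median of 1.15 in the Gata3-GFP+ EC pools. The highest Gata3-GFP+ EC pool lay above 2 of the 20 Gata3-GFP- EC pools. The means were 199 ± 74.9 CPM (SD, n = 20) and 8.88 ± 19.1 CPM (n = 19), a log2 fold change of -4.52 (SE 0.52).

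Prl3b1 had 71.8 to 257 CPM with a median of 124 in the Gata3-GFP- EC pools (195 to 785 counts). In the Gata3-GFP+ EC pools it had 0 to 61.1 CPM with a median of 0.717, and 2 pools had no count. The groups did not overlap, though the highest Gata3-GFP+ EC pool came close to the lowest Gata3-GFP- EC pool. Means were 138 ± 52.9 CPM (SD, n = 20) and 6.18 ± 15.1 CPM (n = 19), with a log2 fold change of -4.49 (SE 0.54). The ratios of summed counts were 23.6 for Kcne3 (95% exact interval 21.7 to 25.6) and 22.5 for Prl3b1 (20.3 to 24.9), below those of the 3 rising genes.

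Gm37121 was the least abundant of the 6. It had 0 to 19.2 CPM with a median of 7.66 in the Gata3-GFP- EC pools, at most 45 counts, and 15 of 20 pools had 10 counts or more, the fewest that its choice allowed. In the Gata3-GFP+ EC pools it had 15 counts in all, of which 12 were in a single pool, and 15 of 19 pools had none. The groups overlapped, since a Gata3-GFP- EC pool also had none. Means were 7.83 ± 5.20 CPM (SD, n = 20) and 0.233 ± 0.846 CPM (n = 19), a log2 fold change of -4.91 (SE 0.67), and the ratio of summed counts was 33.8 (95% exact interval 20.3 to 60.9). Per kilobase of exon, the mean level in Gata3-GFP- ECs was 112 CPM for Kcne3, 129 CPM for Prl3b1 and 3.06 CPM for Gm37121.

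**Figure D2:**
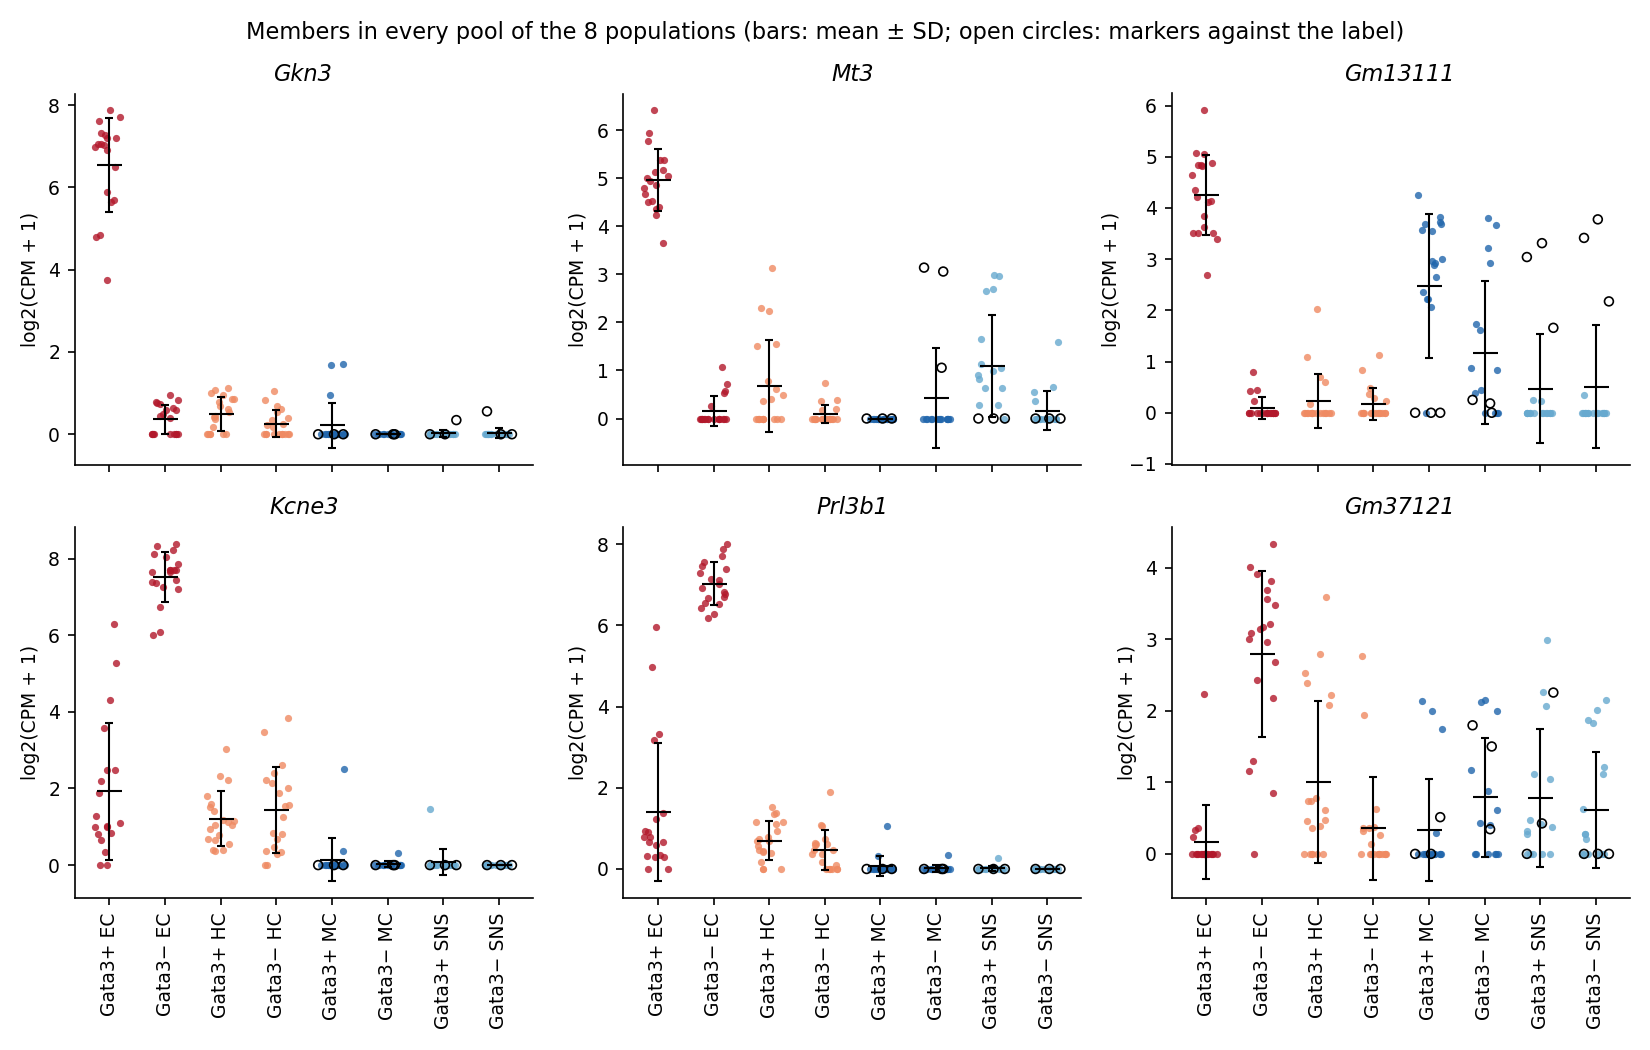
Level of each of the 6 genes as log2(CPM + 1) in every passing pool of the 8 populations, 1 point per pool, with the mean and SD as bars and the 12 pools whose markers went against their label as open circles. Gkn3, Mt3 and Gm13111 are highest in the 19 Gata3-GFP+ EC pools, and Kcne3, Prl3b1 and Gm37121 in the 20 Gata3-GFP- EC pools.

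The choice ended between close values. Among 2511 genes ranked as higher in Gata3-GFP+ ECs, Gm13111 was at rank 3 with a log2 fold change of 7.42, and Cytl1, a secreted cytokine-like protein, was at rank 4 with 7.17 (SE 0.53). Cytl1 had 30.4 ± 19.9 CPM (SD, n = 19) and 0.177 ± 0.297 CPM (n = 20). Among 2341 genes ranked as lower, Prl3b1 was at rank 3 with -4.49 and Nlrc3, an NLR family member, was at rank 4 with -4.28 (SE 0.46), from 26.2 ± 12.3 to 1.24 ± 2.18 CPM. In this comparison 36.0% of 15073 genes tested were called, 19.5% as higher and 16.5% as lower in Gata3-GFP+ ECs. In 1.69% of the genes every Gata3-GFP+ EC pool lay above every Gata3-GFP- EC pool, as in Gkn3, Mt3 and Gm13111, and in 1.35% the reverse held, as in Prl3b1. Because this comparison chose the 6 genes, nothing is read from these shares. In bulk pools, fewer cells that express a gene and less RNA per cell cannot be told apart.

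The counts of the falling genes in Gata3-GFP+ ECs came from few pools. Of the 19 pools, 6 had 10 counts or more of Kcne3 and 4 of Prl3b1, 3 of them of both, and the 1 pool with as many of Gm37121 also had both others. Without the highest pool of each gene, the mean in Gata3-GFP+ ECs was 5.04 CPM for Kcne3, 3.13 CPM for Prl3b1 and 0.0403 CPM for Gm37121. In all, 7 pools had 10 counts or more of any of the 3 genes. Aplnr, the apelin receptor gene of venous endothelium, had a median of 50.5 CPM in these 7 pools (7.88 to 193) and 3.58 CPM in the other 12 (0.513 to 139). Nrp2, a receptor for semaphorins and VEGF-C, had medians of 22.01 CPM (3.94 to 48.8) and 4.05 CPM (0 to 25.4). Gja5, which encodes the arterial connexin 40, had medians of 743 CPM (594 to 810) in the 7 pools and 997 CPM (816 to 1240) in the other 12. The nearest pools were thus close, at 810 and 816 CPM. The median of Gkn3 was 146 CPM in the 7 pools and 104 CPM in the others, whereas those of Mt3 (21.95 and 31.7 CPM) and Gm13111 (11.4 and 21.7 CPM) were lower in the 7 pools, and all 3 ranges overlapped. The 7 pools and the genes Aplnr, Nrp2 and Gja5 were chosen after their values were seen, so no test was made. The share of all genes whose ranges lie apart between these pools was not counted. In the Gata3-GFP- EC pools, where Kcne3 and Prl3b1 were both high, the mean level of Aplnr was 467 CPM and that of Gja5 16.1 CPM.

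**Figure D3:**
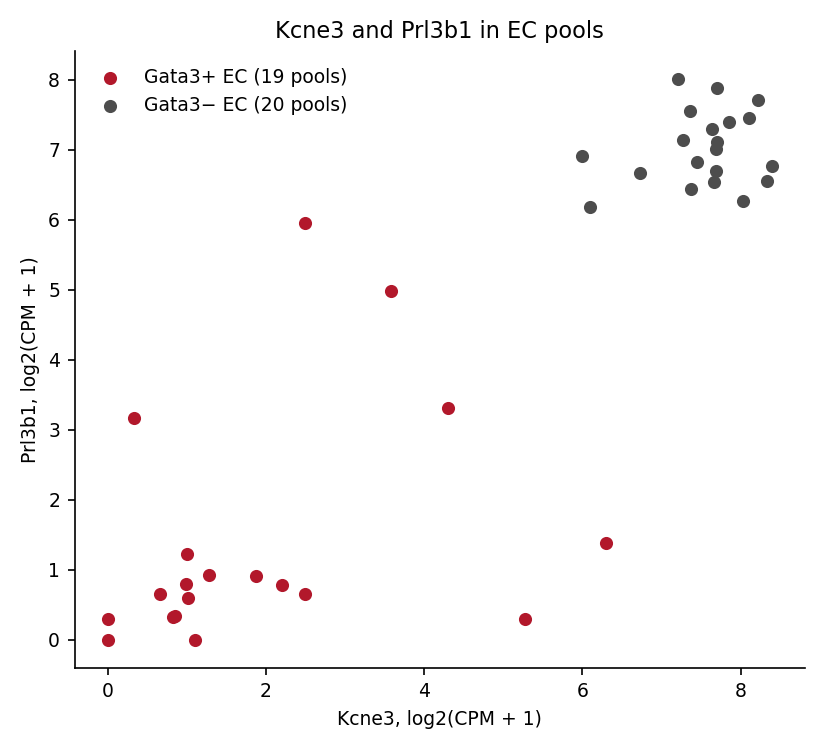
Kcne3 (x) against Prl3b1 (y), both as log2(CPM + 1), in the 39 passing EC pools, 1 point per pool. The 20 Gata3-GFP- EC pools form a group at the upper right, and most Gata3-GFP+ EC pools lie near the origin, with a few spread between.

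The summed levels of several marker lists also differed between the EC populations. The summed CPM of 10 endothelial markers was 6134 to 8217 in Gata3-GFP+ ECs and 3793 to 5634 in Gata3-GFP- ECs, with each marker above 0 in some pool. The 10 sympathetic and neural crest markers summed to 278 to 824 CPM in Gata3-GFP+ ECs, with none at 0 throughout, and to 15.8 to 149 CPM in Gata3-GFP- ECs, with 1 at 0 in every pool. The sum of 8 haematopoietic markers was 206 to 514 CPM in Gata3-GFP+ and 40.8 to 125 CPM in Gata3-GFP- EC pools, with none at 0 throughout. For the 9 mesenchymal markers, the median sum was 94.3 CPM (26.03 to 1579) in Gata3-GFP+ EC pools and 15.995 CPM (3.87 to 72.1) in Gata3-GFP- EC pools. The 4 epithelial markers summed to 22.3 to 124 CPM in Gata3-GFP+ ECs and 0.175 to 7.89 CPM in Gata3-GFP- ECs. The part of these differences in the values of the 6 genes was not tested. Prl3b1 is a placental hormone gene, and 9 of 13 genes of a trophoblast and placenta list had a count in any passing pool of the 8 populations. Their sum was 0 to 0.772 CPM in the Gata3-GFP- EC pools, in which Prl3b1 had 71.8 CPM or more.

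In HCs, the blood cells sorted from the same embryos, all 6 genes were low, and none of those tested was called. At most 8 of 20 pools had 10 counts or more of any of them in either HC population. Only Kcne3 and Gm37121 had enough counts to be tested. Over all genes, 26.6% of 16200 tested were called, and 0 of these 2 were, with unadjusted p-values of 0.167 for Kcne3 and 0.0307 for Gm37121 in edgeR. Kcne3 had 0.281 to 7.23 CPM with a median of 1.12 in the 20 Gata3-GFP+ HC pools and 0 to 13.3 CPM with a median of 1.64 in the 20 Gata3-GFP- HC pools. Every Gata3-GFP+ HC pool had at least 1 count of it, and the groups overlapped. The log2 fold change was -0.73 (SE 0.52, adjusted p = 0.284 in edgeR). Gm37121 had 0 to 11.1 CPM (median 0.458) in Gata3-GFP+ HCs and 0 to 5.83 CPM (median 0) in Gata3-GFP- HCs, a log2 fold change of 1.81 (SE 0.81, adjusted p = 0.0753 in edgeR), so its difference had the other sign than in ECs but was not called.

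The remaining 4 genes were at the edge of detection in HCs. Gkn3 had 28 counts over 14 of 20 Gata3-GFP+ HC pools and 16 counts over 10 of 20 Gata3-GFP- HC pools, and its mean in Gata3-GFP+ HCs was 0.401% of that in Gata3-GFP+ ECs. Prl3b1 had 42 and 33 counts in the same populations, and Gm13111 18 and 11. Mt3 was uneven. It had a median of 0.144 CPM and a highest value of 7.82 CPM (25 counts) in Gata3-GFP+ HCs, where 10 of 20 pools had any count and 4 had 10 counts or more, and 8 counts over 5 of 20 pools in Gata3-GFP- HCs. The sympathetic and neural crest sum was 247 to 2264 CPM with a median of 861 in these 4 pools and 2.998 to 251 CPM with a median of 111 in the other 16. Gata3 had a median of 83.4 CPM in the 4 pools and 42.2 CPM in the others, and the macrophage sum a median of 1984 against 5031 CPM. Median sums were also higher in the 4 pools for mesenchymal (675 against 333 CPM) and myocardial markers (132 against 37.9 CPM). The same held for trophoblast and placenta (39.95 against 3.85 CPM) and epithelial markers (57.9 against 41.9 CPM). They were lower for haematopoietic (1683 against 2129 CPM) and erythroid markers (34.3 against 103 CPM), and alike for endothelial markers. Mt3 was too low for the HC test. Without the filter on genes it would have been called (log2 fold change 3.34, SE 0.79, adjusted p = 0.00122 in edgeR), and likewise when all 4 E10.5 populations were fitted at once (3.32, SE 0.58, adjusted p = 2.81e-06). The part of the sympathetic or other markers in this difference was not tested.

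In the E11.5 pools labelled MC, Gm13111 had the highest mean level of the 6 genes. With all pools it had 0 to 18.2 CPM with a median of 6.51 in the 20 Gata3-GFP+ MC pools and 0 to 12.9 CPM with a median of 0.360 in the 17 Gata3-GFP- MC pools. Among the pools whose markers went with the label, 16 of 17 Gata3-GFP+ and 10 of 14 Gata3-GFP- MC pools had counts of it, with means of 7.98 ± 4.66 CPM (SD, n = 17) and 3.30 ± 4.60 CPM (n = 14). The groups overlapped either way. The log2 fold change was 1.33 (SE 0.74, adjusted p = 0.287 in edgeR) with all pools and 1.30 (SE 0.63, adjusted p = 0.171) without the 12 pools. Gm37121 was the other gene tested. It had counts in 5 of 20 Gata3-GFP+ MC pools (0 to 3.39 CPM, median 0). In Gata3-GFP- MCs it had counts in 11 of 17 pools (0 to 3.43 CPM, median 0.347). Its log2 fold change was -1.15 (SE 0.84, adjusted p = 0.453 in edgeR), and it was too low to be tested without the 12 pools. None of the genes tested was called, with unadjusted p-values of 0.0793 for Gm13111 and 0.181 for Gm37121 in edgeR. Of all genes tested 4.36% were called, or 10.4% without the 12 pools.

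Gkn3, Mt3, Kcne3 and Prl3b1 were close to absent in MCs. Mt3 had 0 counts in all 20 Gata3-GFP+ MC pools, which allows a level of up to 0.0313 CPM over the population. In the Gata3-GFP- MC pools its 81 counts were all in the 3 pools with sympathetic markers, at 1.08, 7.33 and 7.81 CPM. The other 14 had none, so Mt3 was at 0 in all 31 MC pools whose markers went with their label. Gkn3 had 23 counts in 3 of 20 Gata3-GFP+ MC pools, with 2.28 CPM at most, and 0 counts in the 17 Gata3-GFP- MC pools, which allows up to 0.0427 CPM. Kcne3 had 23 counts and Prl3b1 6 counts in Gata3-GFP+ MCs, and each had 1 count in Gata3-GFP- MCs.

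In the pools labelled SNS, Mt3 rose with Gata3-GFP and the other genes did not pass the test or were too low for it. Mt3 had 0 to 6.88 CPM with a median of 0.817 in the 18 Gata3-GFP+ SNS pools, 14 of which had counts. In the 19 Gata3-GFP- SNS pools the median was 0 and the highest value 2.02 CPM, and 4 pools had counts. The groups overlapped. The log2 fold change was 3.26 (SE 0.80, adjusted p = 0.00684 in edgeR's quasi-likelihood test). In this comparison 3.87% of 16143 genes were called, 2.01% as higher and 1.86% as lower in Gata3-GFP+ SNS, and 1 of the 3 tested genes was. Without the pool with the highest Mt3 value the log2 fold change was 3.0045 and no longer called (adjusted p = 0.0140 in edgeR).

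Without the 12 pools, Mt3 was detected in 14 of 15 Gata3-GFP+ SNS pools, at 2.20 ± 2.51 CPM (SD, n = 15), and in 4 of 16 Gata3-GFP- SNS pools, at 0.209 ± 0.516 CPM (n = 16). The log2 fold change was then 3.30 (SE 0.79, adjusted p = 0.00275 in edgeR) and remained past the threshold also without its highest pool (3.07, adjusted p = 0.00568). There 4.94% of 15658 genes were called as higher, 5.48% as lower and 10.4% in either direction. The Mt3 level was nonetheless small, 5.49% of that in Gata3-GFP+ ECs with all pools. Over the 15 Gata3-GFP+ SNS pools whose markers went with the label, log2 Mt3 had a Pearson r of 0.66 with Gata3, 0.68 with Dbh, which makes noradrenaline, and 0.76 with the neuronal tubulin gene Tubb3. Its r was -0.63 with the glial and neural crest gene Sox10, and Spearman's rho was 0.61, 0.74, 0.75 and -0.55 in the same order. These pools share a sort and library type, and the correlations are a description.

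Gm13111 had 2 counts in the 15 Gata3-GFP+ and 1 count in the 16 Gata3-GFP- SNS pools whose markers went with the label. In the 3 pools of each with mesenchymal markers it had 2.16 to 8.93 CPM and 3.51 to 12.7 CPM. Its log2 fold change between the Gata3-GFP+ and Gata3-GFP- pools labelled SNS was -0.46 (SE 1.08, adjusted p = 0.861 in edgeR) and rested on those 6 pools. Gm37121 was found in 12 of the 18 Gata3-GFP+ SNS pools and in 10 of the 19 Gata3-GFP- SNS pools, with medians of 0.314 and 0.155 CPM and a log2 fold change of 0.59 (SE 0.80, adjusted p = 0.736). Without the 12 pools it was 0.31 (SE 0.82, adjusted p = 0.851). Gkn3 had 3 counts in all SNS pools, each of them in a pool with mesenchymal markers, Kcne3 had 7 counts in a single pool, and Prl3b1 had 1 count.

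**Figure D4:**
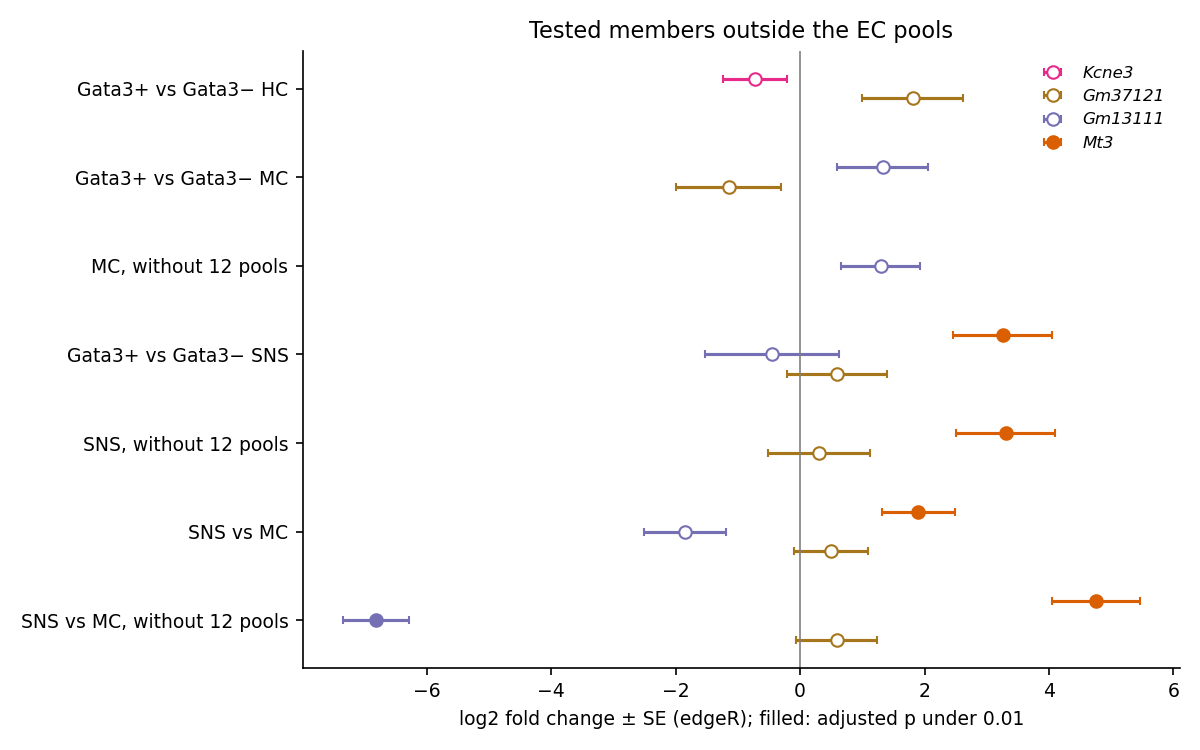
Log2 fold change with SE (edgeR) of each gene tested in the comparisons outside ECs, with all pools and without the 12 pools whose markers went against their label. Filled points have an adjusted p under 0.01, as Mt3 between Gata3-GFP+ and Gata3-GFP- SNS (3.26 and 3.30) and Mt3 and Gm13111 between SNS and MC without the 12 pools (4.75 and -6.82).

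SNS and MC pools differed in Mt3 and in Gm13111, in opposite directions. With all pools, the log2 fold change of SNS against MC was 1.90 for Mt3 (SE 0.58, adjusted p = 0.00817 in edgeR), which was called, and -1.85 for Gm13111 (SE 0.65, adjusted p = 0.0216), which was not. Without the 12 pools the values were 4.75 for Mt3 (SE 0.71, adjusted p = 6.81e-07) and -6.82 for Gm13111 (SE 0.53, adjusted p = 1.19e-17), and both were called. Mt3 was then at 0 in all MC pools, so its fitted value depends on the prior count and is no bound. DESeq2 did not call Mt3 with all pools (1.49, adjusted p = 0.227) and called it without the 12 (3.82, adjusted p = 4.97e-05). Gm37121 was not called in either case, at 0.49 (SE 0.60, adjusted p = 0.564 in edgeR) and 0.59 (SE 0.65, adjusted p = 0.477). Of all genes tested, 23.4% were called with all pools and 40.2% without the 12.

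Whether the Gata3-GFP difference was larger in SNS than in MC pools was tested as an interaction. It was 8.48 for Mt3 on the log2 scale (SE 1.39, adjusted p = 9.77e-06 in edgeR) with all pools, and rested on the 3 Gata3-GFP- MC pools with sympathetic markers and on a Gata3-GFP+ MC population at 0. Without the 12 pools Mt3 was at 0 in all 31 MC pools, and edgeR's estimate for it had no usable SE and is not given. DESeq2 gave 3.77 for Mt3 (SE 1.75, adjusted p = 0.129). Gm13111 and Gm37121 were not called, at -1.79 (SE 1.29, adjusted p = 0.386 in edgeR) and 1.72 (SE 1.20, adjusted p = 0.366), nor without the 12 pools, at -0.90 (SE 6.37, adjusted p = 0.955) and 1.15 (SE 1.29, adjusted p = 0.619). With all pools 9.66% of genes were called in this interaction, and without the 12 pools 10.4%.

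Across the 8 populations, each of the 6 genes had a single population that stood above the rest. It was an EC population each time, and the high EC level was part of the choice, so this order is a description. On the log2(CPM + 1) scale, Gkn3 in Gata3-GFP+ ECs lay 6.05 above the next population, Gata3-GFP+ HCs, and Mt3 lay 3.87 above Gata3-GFP+ SNS. Kcne3 and Prl3b1 in Gata3-GFP- ECs lay 5.60 and 5.62 above Gata3-GFP+ ECs, the comparison by which they were chosen. The steps were smaller for Gm13111, 1.78 from Gata3-GFP+ ECs to Gata3-GFP+ MCs, and for Gm37121, 1.79 from Gata3-GFP- ECs to Gata3-GFP+ HCs. Below the top population, neighbours in the order did not differ beyond the SDs of their pools, except that Gata3-GFP+ HCs stood above Gata3-GFP+ MCs for Kcne3 and, without the 12 pools, Gata3-GFP+ MCs 1.52 above Gata3-GFP- MCs for Gm13111. The step of Gm13111 was not beyond the SDs with a pseudocount of 0.1 or with ERCC scaling, under which it was 0.99.

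The genes most like each of the 6 were found by Pearson's r of log2(CPM + 1) over the 153 pools, among 20079 genes. The pools fall into 8 populations, so r mostly follows the differences between them. The EC pools that chose the 6 genes are among them. A high r between genes chosen in the same direction, such as Kcne3 and Prl3b1, therefore follows from the choice. Gkn3 was most like Tmem255b (r = 0.95, rho = 0.63), Agr2 (0.94, 0.64) and Sost (0.94, 0.61). Mt3 was most like Gkn3 (r = 0.88, rho = 0.46), Ace, the angiotensin-converting enzyme (0.88, 0.60), and Syt15 (0.87, 0.45). Gm13111 was most like Hey2, a Notch target of arterial endothelium (r = 0.85, rho = 0.72), Ltbp4 (0.85, 0.70) and elastin, Eln (0.84, 0.71), and all 3 were also above 50 CPM in a population other than ECs. Kcne3 was most like Prl3b1 (r = 0.92, rho = 0.83), Aplnr (0.92, 0.88) and Fam167b (0.90, 0.74). Prl3b1 was most like Lhx6 (r = 0.94, rho = 0.57), Stab2 (0.93, 0.72) and Aplnr (0.93, 0.85). For Gm37121 the highest values were lower, with Prl3b1 (r = 0.62, rho = 0.34), Lhx6 (0.61, 0.33) and Fzd10 (0.60, 0.45).

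Within a population the genes varied largely apart from each other. Over the 19 Gata3-GFP+ EC pools, r was 0.37 between Gkn3 and Mt3, -0.27 between Gkn3 and Gm13111 and 0.33 between Mt3 and Gm13111 (rho 0.30, -0.33 and 0.29). Their r with Gata3 was 0.12, 0.21 and 0.06, so pools with more Gata3 did not have clearly more of them. Gkn3 had an r of -0.50 (rho -0.55) with the ratio of gene to ERCC counts, a measure of RNA per pool. Over the 20 Gata3-GFP- EC pools, r was 0.19 between Kcne3 and Prl3b1, -0.15 between Kcne3 and Gm37121 and 0.25 between Prl3b1 and Gm37121. Gm37121 had an r of 0.64 (rho 0.59) with Gata3 and -0.47 (rho -0.46) with the gene to ERCC ratio there. The coefficient of variation over pools was 0.56 for Gkn3, 0.52 for Mt3 and 0.59 for Gm13111 in Gata3-GFP+ ECs, and 0.38 for Kcne3, 0.38 for Prl3b1 and 0.66 for Gm37121 in Gata3-GFP- ECs.

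The relatives of Mt3 did not share its pattern. In ECs, Mt1 went the other way, with 8.33 ± 4.63 CPM (SD, n = 19) in the GFP-positive and 24.5 ± 10.4 CPM (n = 20) in the GFP-negative pools, and Mt2 was low in both, at 0.754 ± 0.818 and 1.05 ± 1.20 CPM. In HCs, Mt1 was the main metallothionein, at 714 ± 414 CPM in Gata3-GFP+ and 607 ± 204 CPM in Gata3-GFP- pools (SD, n = 20 each). Mt2 rose there from 28.1 ± 20.3 to 110 ± 71.2 CPM with Gata3-GFP, a log2 fold change of 1.97 (SE 0.35, adjusted p = 1.96e-05 in edgeR). In SNS, Mt1 was lower in Gata3-GFP+ pools, by a log2 fold change of -1.76 (SE 0.43, adjusted p = 0.00677 in edgeR), or -1.77 (SE 0.22, adjusted p = 2.31e-07) without the 12 pools, whereas Mt3 was higher. Of 18 genes for metallothioneins and zinc transport, 15 were tested in SNS, of which 2 were higher (Mt3 and the zinc importer gene Slc39a8, at 1.72, or 1.80 without the 12 pools) and 1 lower (Mt1), beside 3.87% of all genes. With ERCC scaling Mt1 kept its sign in SNS but not its call (-1.34, SE 0.47, adjusted p = 0.0395 in edgeR). In HCs 15 were tested, with 1 higher (Mt2) and 1 lower (the zinc exporter gene Slc30a5, at -0.61), and in MCs 14, with 1 higher (Slc39a1, at 0.42, or 0.41 without the 12 pools), and neither Slc30a5 nor Slc39a1 was called with ERCC scaling (adjusted p = 0.0351 and 0.0166).

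**Figure D5:**
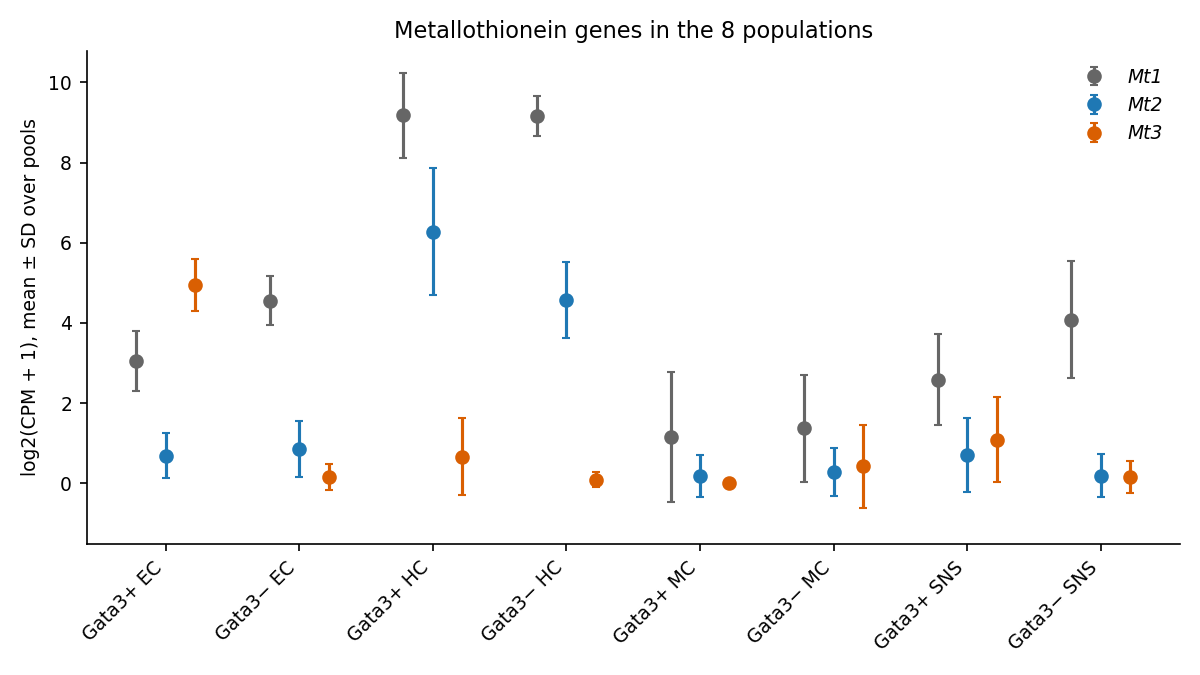
Mean log2(CPM + 1) with SD over pools of Mt1, Mt2 and Mt3 in the 8 populations, all passing pools. Mt3 lies above Mt1 in Gata3-GFP+ ECs, and below it elsewhere.

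Among the relatives of the other genes, few had counts. Gkn1 had 30 counts and Gkn2 none over the 153 pools, so nearly all counts of the gastrokine family were of Gkn3. Of 26 prolactin family genes, Prl3b1 was by far the most abundant. Prl2c3 was next, at 2.04 ± 1.43 CPM (SD) over the 19 Gata3-GFP+ EC pools and 0.997 ± 1.23 CPM over the 20 Gata3-GFP- EC pools. The prolactin receptor gene was too low to be tested in any comparison, that of ECs included. Of 5 KCNE genes in the table, Kcne1l was the most abundant besides Kcne3 and was found where Kcne3 was not, with 45.3 ± 15.5 CPM (SD, n = 18) in Gata3-GFP+ SNS against 0.773 ± 1.74 CPM (n = 19) in Gata3-GFP+ ECs. Its log2 fold change in SNS was 0.71 (SE 0.22, adjusted p = 0.0370 in edgeR), and 0.95 (SE 0.20, adjusted p = 8.29e-04) without the 12 pools, when it was called. Kcnq1, a channel that KCNE3 joins, had mean levels of 19.9 CPM in the 19 Gata3-GFP+ and 20.5 CPM in the 20 Gata3-GFP- EC pools, a log2 fold change of -0.08 (SE 0.29), or -0.79 (SE 0.30) with ERCC scaling, which shifted the median of all genes in ECs from 0.10 to -0.60. Of 11 genes for channel partners, 3 were tested in HCs, 8 in MCs and 8 in SNS, where 26.6%, 4.36% and 3.87% of all genes were called, and 1 was called in each. Kcnh2 was called as higher in Gata3-GFP+ HCs (3.28, SE 0.71, adjusted p = 2.81e-04 in edgeR) and as lower in Gata3-GFP+ SNS (-1.48, SE 0.28, adjusted p = 5.93e-04, or -1.14 and 0.0111 with ERCC scaling), and Kcnq3 as higher in Gata3-GFP+ MCs (3.15, SE 0.79, adjusted p = 0.00730). Both E11.5 calls also passed the test without the 12 pools, at -1.62 for Kcnh2 in SNS and 3.03 for Kcnq3 in MCs.

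Of 5 annotated genes within 50 kb of Gm13111, 2 were tested in ECs, Prdm16 and the non-coding gene Gm27202, 359 bases from it on the opposite strand, and of 2 such genes at Gm37121, 1 was tested, its host Nrp2. All 3 differed between the EC populations in the same direction as the locus beside them. Of all genes tested in ECs, 19.5% were called as higher and 16.5% as lower in Gata3-GFP+ pools. Gm27202 was low, at 2.04 ± 2.51 CPM (SD) over the 19 Gata3-GFP+ and 0.0994 ± 0.375 CPM over the 20 Gata3-GFP- EC pools. Prdm16, next to Gm13111, stood at 73.5 ± 20.1 CPM (SD) over the 19 Gata3-GFP+ EC pools and 12.6 ± 9.96 CPM over the 20 Gata3-GFP- EC pools, and also 36.2 ± 18.4 CPM (n = 20) in Gata3-GFP+ MCs and 18.1 ± 12.8 CPM (n = 17) in Gata3-GFP- MCs. In MCs its log2 fold change was 0.99 (SE 0.39, adjusted p = 0.107 in edgeR), and 0.98 (SE 0.22, adjusted p = 0.00145) without the 12 pools, when it was called. The genes share no exon bases, and the strand setting of the counting is not given in the sources used here. Nrp2, the host of Gm37121, stood at 13.4 ± 13.5 CPM (SD) over the GFP-positive and 223 ± 79.4 CPM over the GFP-negative EC pools. In MCs, its log2 fold change was -1.001 (SE 0.31, adjusted p = 0.0346 in edgeR), and -1.23 (SE 0.34, adjusted p = 0.00996) without the 12 pools. Nrp2 had 58.9 ± 21.7 CPM (SD, n = 18) in Gata3-GFP+ SNS, where Gm37121 had 1.21 ± 1.95 CPM. Both genes near Gm37121 were tested in HCs, where 26.6% of all genes were called. The non-coding gene Gm4208 was called there as higher with Gata3-GFP. Nrp2 (0.89, SE 0.37, adjusted p = 0.0555 in edgeR) was not called in HCs, nor was Prdm16 (0.66, SE 0.55, adjusted p = 0.363).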

How the data were processed

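RNA was sequenced from pools of 20 sorted cells by Smart-seq2 with ERCC spike-in RNAs. The authors deposited raw read counts per gene for 160 pools, neither normalized nor filtered. The study's methods name STAR, Ensembl release 81 and HTSeq, whereas the submitters' processing notes name GSNAP, HTSeq 0.5.3p3 and mm10. Which of these made the counts, and the strand and overlap settings, are not given in the sources used here. The summary lines of the counter, a median of 51.2% of all reads, were left out of library sizes and tests.

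Of 160 pools, 153 were kept by 4 of the study's 5 limits, which ask for more than 500000 reads assigned to a gene or a spike-in, more than 20% of the reads assigned to genes, and shares of mitochondrial and of ERCC reads that are each below 20%. The fifth, on the number of high coverage genes, was not applied, because the coverage meant is not given in the sources used here. In each cell type, GFP-positive pools were set against GFP-negative pools in edgeR 4.0.16 (R 4.3.3) with TMM factors and robust quasi-likelihood fits, with Benjamini-Hochberg adjustment over all genes tested. The 4 E11.5 populations were fitted together for SNS against MC and for the interaction. SEs were taken from the F statistics. Alternatives were other size factors (DESeq2, scran 1.30.0, ERCC), other filters and thresholds, DESeq2 1.42.0 and, as the study did, scanpy 1.11.5. Leaving out the 12 E11.5 pools whose markers went against their label was chosen after the data had been seen. The tests were tried first on simulated data with known changes. They found 36 to 43% of 2-fold and 69 to 72% of 4-fold changes in HC, MC and SNS, with at most 1 false call. In the interaction they found 22% and 43%, with 7 false calls. A gene that was not called may therefore still differ.

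The 6 genes, the family and marker lists and the tests were chosen with earlier results of these data known. Named are the 6 genes, the next-ranked gene in each direction, the 3 genes most like each, Gata3 and sorting markers, and, of each family list, up to 4 genes with the highest levels or called outside ECs. Genes named for the 7 Gata3-GFP+ EC pools with the falling genes and the neural genes set beside Mt3 were chosen after their values were seen. Positions came from GENCODE M21, in which 45229 of 46078 identifiers were found. Promoter sequences are those of RefSeq (GRCm38.p6), and windows matched 4 of the 6 genes.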

Additional observations from a re-analysis of the deposited data

Results flagged for a closer look

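The Gata3-GFP difference of Mt3 was larger in the pools labelled SNS than in those labelled MC, by 8.48 on the log2 scale in a test of the difference itself (SE 1.39, adjusted p = 9.77e-06 in edgeR's quasi-likelihood test). Mt3 had 14 of 18 Gata3-GFP+ SNS pools with counts against 4 of 19 Gata3-GFP- SNS pools, and 0 of 20 Gata3-GFP+ MC pools against 3 of 17 Gata3-GFP- MC pools. Those 3 MC pools had sympathetic rather than mesenchymal markers and Gata3 at 123 CPM or more. Because Gata3-GFP+ MCs had 0 counts, the fitted value depends on the prior count and bounds nothing. Without the 12 pools whose markers went against their label, Mt3 was at 0 in every MC pool. The edgeR estimate then had no usable SE and is not given, and DESeq2 gave 3.77 (adjusted p = 0.129).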

How the results depend on the processing

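No fold change of the 6 genes that passed the test changed sign under any alternative. In SNS, Mt3 had log2 fold changes between 3.0045 and 3.45 over 13 alternatives, with adjusted p-values from 7.77e-04 to 0.0259, and lost its call without its highest pool, in 1 fit of the 4 populations (adjusted p = 0.0259 in edgeR) and in the study's test in scanpy (adjusted p = 0.0162). The members called in SNS were then 0 in that fit and that test, and also with a filter of at least 10 counts in at least 20 pools, which removed Mt3. In HCs and in MCs, 1 gene (Mt3) was called with no filter on genes and in 1 fit of the 4 populations. The MC call rested on the 3 Gata3-GFP- pools with sympathetic markers. Between SNS and MC, 2 of the genes were called at an adjusted p under 0.05 and without the 12 pools (2 also by DESeq2), and 0 with no filter, with the stricter filter or by DESeq2 with all pools. In the interaction, 0 were called with the stricter filter and without the 12 pools by either tool.

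Over all genes, calls in MCs rose from 698 to 1514 at an adjusted p under 0.05, fell to 381 with ERCC scaling, and were 1585 (edgeR) and 1910 (DESeq2) without the 12 pools. In SNS they went from 625 to 1334, 1013, 1631 and 1940 under the same changes. Between SNS and MC, 4148 became 8545 with ERCC scaling and 6963 and 7017 without the 12 pools. The interaction had 1713 calls and 2961 at an adjusted p under 0.05. ERCC scaling moved the median log2 fold change of all genes from 0.10 to -0.60 in ECs, from 0.00 to 0.35 in SNS and from 0.00 to 0.48 between SNS and MC, and the share of calls that were higher from 54.1% to 14.3% in ECs, 50.7% to 72.4% in MCs, 52% to 83.3% in SNS, 48.5% to 89.2% between SNS and MC and 53.5% to 76.3% in the interaction. With scran factors that share went from 64.2% to 53.1% in HCs and from 50.7% to 74.9% in MCs. All 6 genes kept their direction in ECs under every alternative, with log2 fold changes of 7.43 to 8.72 for Gkn3, 7.16 to 8.60 for Mt3, 6.93 to 8.57 for Gm13111, -6.39 to -4.46 for Kcne3, -6.77 to -4.43 for Prl3b1 and -6.29 to -4.86 for Gm37121. The values farthest from those of TMM scaling in edgeR came from ERCC scaling or the study's test. The causes of these changes were not tested.

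No paired analysis was possible because the column names of the count table carry no pool number that links a pool of one population to a pool of another or to a sort. Low counts limited most results outside ECs, where at most 3 of the 6 genes passed the filter in any comparison.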

Other observations

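Lists of arterial, venous and tip cell genes, of which several moved with the 6 genes in ECs, also held genes that differed by Gata3-GFP outside ECs. In HCs, 16 of 19 arterial genes were tested, and edgeR called 10 as higher with Gata3-GFP and 0 as lower, where 26.6% of all genes were called. The netrin receptor gene Unc5b had a log2 fold change of 3.91, the Notch target gene Hey2 3.42 and the Notch ligand gene Jag1 3.003. Among 6 venous genes 3 rose and 0 fell there, namely Nr2f2, a regulator of venous identity, at 3.63, the ephrin receptor gene Ephb4 at 2.43 and Emcn at 1.15. Of 12 tip cell genes, 9 were tested there, with 4 higher and 1 lower. The sum of 10 endothelial markers was also higher in those pools, at 109 to 676 CPM in Gata3-GFP+ HCs and 33.4 to 186 CPM in Gata3-GFP- HCs. So were the median sums of mesenchymal markers, at 369 CPM in Gata3-GFP+ and 42.7 CPM in Gata3-GFP- HCs, and of sympathetic and neural crest markers, at 122 and 8.99 CPM. The part of these markers in the differences was not tested.

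In the pools labelled MC, 6 of 14 arterial genes tested were higher and 0 lower with all pools, and 7 and 0 without the 12 pools whose markers went against their label, beside 4.36% and 10.4% of all genes called. Hey2 had 78.5 ± 39.3 CPM (SD, n = 20) in Gata3-GFP+ MCs and 21.9 ± 13.6 CPM (n = 17) in Gata3-GFP- MCs, with a log2 fold change of 1.83, or 1.81 without the 12 pools. The endothelial marker sum was 2.17 to 105 and 18.9 to 76.5 CPM in the same populations. In SNS, 0 of 16 arterial genes were higher and 1 lower (Jag1, at -1.48, or -1.40 without the 12 pools), beside 3.87% of all genes. When the 12 pools were left out, 2 of 15 were higher and 2 lower, beside 10.4% of all genes. The tip cell gene Igfbp3, which encodes a binding protein of insulin-like growth factors, was higher in Gata3-GFP+ SNS by 1.62 (SE 0.27, adjusted p = 1.02e-04 in edgeR), or by 1.74 without the 12 pools. It was the only 1 called of 10 tip cell genes tested in SNS with all pools, and their median log2 fold change was -0.58. Without the 12 pools 2 were higher and 0 lower, with a median of -0.64. In MCs, 4 of 9 tip cell genes were higher and 0 lower with all pools. Igfbp3 had -1.55 there (SE 0.48, adjusted p = 0.0350 in edgeR) and was not called.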
